A study of Mus musculus with 6 samples.

Results

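The iron handling genes described here are 10 genes of 54532 in a table of mouse read counts, chosen by symbol, and each symbol was found once: Slc40a1, Slc11a1, Slc11a2, Tfrc, Fth1, Ftl1, Hamp, Lcn2, Ireb2 and Hp. The counts come from N9 microglia, an immortalized cell line made from mouse brain. The groups are 3 libraries from unstimulated control cells and 3 libraries from cells given lipopolysaccharide (LPS), the glycolipid that coats gram-negative bacteria, at 1 µg/ml for 6 h. Both groups are the same line, and no genotype differs between them. The labels do not say whether the 3 libraries of a group are separate cultures, so p-values measure the spread between these libraries, which may be technical.

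Cells take up iron bound to transferrin through the transferrin receptor, move it out of endosomes through a divalent metal transporter, store it inside ferritin shells and export it through ferroportin. The liver hormone hepcidin removes ferroportin from the cell surface. During infection, macrophages and related cells hold iron back from microbes, and microglia do the same in the brain. Much of this control acts on RNA: iron regulatory proteins bind a short hairpin, the iron-responsive element, in the untranslated regions (UTRs) of several of these messengers. Bound in a 5′ UTR the element blocks translation, and bound in a 3′ UTR it protects the messenger from decay, so messenger counts alone do not give protein levels.

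The element was searched for as a bulged C, then any 5 bases, then the loop CAGTGN, with the 5 bases paired to the other side of the stem, allowing G-U pairs and at most 1 skipped base. It was found in a UTR of 5 of the 10 genes, 8 times in all. The sequences are shown because they divide the genes into those with the element before the coding part and those with it after. Each is 28 bases from GRCm38, written 5′ to 3′ on the gene's own strand, with the bulged C and the loop in capitals.

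Fth1: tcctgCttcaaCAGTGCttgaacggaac

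Ftl1: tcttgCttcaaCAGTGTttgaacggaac

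Slc40a1: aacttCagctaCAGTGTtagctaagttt

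Slc11a2: gccatCagagcCAGTGTgtttctatggt

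Tfrc element 1: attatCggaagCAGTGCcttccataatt

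Tfrc element 2: attatCgggagCAGTGTcttccataatg

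Tfrc element 3: tatatCggagaCAGTGAtctccatatgt

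Tfrc element 4: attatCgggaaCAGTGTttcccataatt

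The first 3 lie in 5′ UTRs, at chr19:9982733-9982760 on the plus strand for Fth1, chr7:45459779-45459806 on the minus strand for Ftl1 and chr1:45925465-45925492 on the minus strand for Slc40a1. The elements of the ferritin heavy and light chain are identical at 26 of 28 bases. The Slc11a2 element lies in a 3′ UTR at chr15:100395153-100395180 on the minus strand, has 1 skipped base in its stem, and is annotated in only some transcripts of the gene, which counts per gene cannot separate. The 4 Tfrc elements lie in the 3′ UTR on the plus strand, at chr16:32631220-32631247, chr16:32631599-32631626, chr16:32631664-32631691 and chr16:32631711-32631738, and any pair of them is identical at 17 to 25 of 28 bases. The same letters and pairing were found in a UTR of 438 of 21901 protein-coding genes, or 2.0%, and the letters alone, whatever the pairing, in 41.3%. A match is a description of sequence and not a measured binding site.

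LPS was set against control to ask which of these messengers change when microglia are activated. Of the 10 genes, 9 had enough counts for edgeR's quasi-likelihood test, and Hamp did not. At a Benjamini-Hochberg adjusted p under 0.05 over all 12296 genes tested, 5 of the 9 rose: Slc11a2, Lcn2, Hp, Slc11a1 and Fth1. Over all genes tested, 18.7% were higher with LPS by the same threshold and 15.7% were lower. None of the 9 fell by edgeR, 1 had an unadjusted p under 0.05 in that direction (Ftl1), and DESeq2 called 0 lower. With the further threshold of a log2 fold change over 1.5, which the study used for its differentially expressed genes, 2 of the 9 passed, Slc11a2 and Lcn2, against 2.4% of all genes tested. The call of Lcn2 was lost by DESeq2, with total counts as the scaling, and without control replicate 1, control replicate 3, LPS replicate 1 or LPS replicate 2, which leaves 4 genes called higher and 1 past the fold threshold. In 5 of the 9 the libraries of the groups did not overlap, against 45.3% of all genes tested. Control replicates 2 and 3 stood apart from the other libraries in holding messengers of liver cells, described with Hamp. Without them the log2 fold change was 2.00 for Slc11a2, 1.30 for Hp, 0.68 for Slc11a1, 0.47 for Fth1 and -0.12 for Ftl1. That of Lcn2 was 4.41, set by the single count of control replicate 1. In the fit to all 6 libraries, the median log2 fold change of the 9 was 0.45, beside a median of 0.0036 over all genes tested. Confidence intervals are not adjusted for the number of genes. Levels below are in CPM, the counts a gene would have in a library of 1000000 counts after scaling between libraries.

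**Figure D1:**
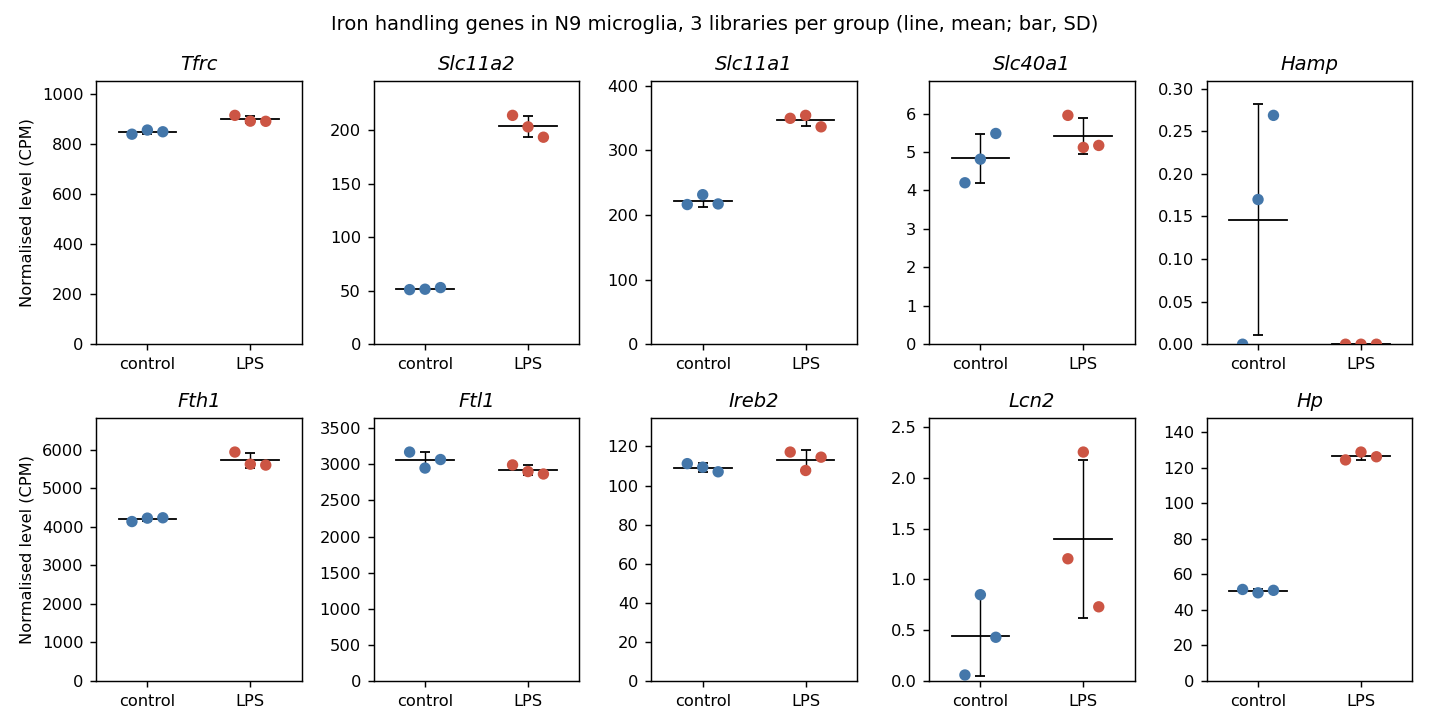
Level of each of the 10 genes in each library, in CPM after scaling, on linear axes that start at 0. Points are the 3 control and 3 LPS libraries, lines are means and bars are SD. The groups stand apart for Slc11a2, Slc11a1, Fth1 and Hp, narrowly for Tfrc, and overlap for Slc40a1, Ftl1, Ireb2 and Lcn2. Hamp was counted in 2 control libraries.

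Slc11a2 encodes DMT1, the transporter that carries ferrous iron out of endosomes into the cytosol, and it had the largest log2 fold change of the 9 in the fit to all 6 libraries. Lcn2 stood above it without control replicate 2 (2.44 against 1.96) and without control replicates 2 and 3 (4.41 against 2.00). The deposited table places it at chr15:100387898-100425072 on the minus strand. Its level was 51.0, 51.4 and 52.9 CPM in control replicates 1, 2 and 3, and 214, 203 and 193 CPM in LPS replicates 1, 2 and 3. The lowest LPS library stood well above the highest control library. The means were 51.7 ± 1.01 (SD, n = 3) and 203.3 ± 10.2 CPM (n = 3), a 3.93-fold difference with a log2 fold change of 1.97 (SE 0.051, adjusted p = 3.1e-13). A gene on the opposite strand within its span, Gm5475, had at most 7 counts in any library.

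Slc11a1, which encodes NRAMP1, moves divalent metals out of the phagosome of macrophages and bears on resistance to intracellular bacteria. It lies at chr1:74375195-74386062 on the plus strand. The control libraries held 216, 231 and 217 CPM and the LPS libraries 349, 354 and 336 CPM. The groups were again separate, with a log2 fold change of 0.65 (SE 0.044, adjusted p = 2.3e-08). Both genes of this transporter family thus rose, from unequal levels. Per kilobase of the deposited gene length, the level of Slc11a2 was 0.138, 0.130 and 0.142 of that of Slc11a1 in the control libraries, and 0.357, 0.335 and 0.335 of it in the LPS libraries. The ratio of their levels was 2.51-fold higher with LPS, and the libraries did not overlap (exact permutation test, two-sided, p = 0.1, the smallest that 3 against 3 can give).

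Tfrc, the transferrin receptor through which most cells import iron, lies at chr16:32608920-32632794 on the plus strand and was well counted. The control libraries held 840, 856 and 849 CPM, and the LPS libraries 915, 892 and 891 CPM. The LPS libraries lay above the control libraries by a small margin, and the gene did not pass the test. Its log2 fold change was 0.08 (SE 0.031, 95% confidence interval 0.017 to 0.15, adjusted p = 0.0518). That direction depends on the scaling: with total counts in place of TMM factors, which leave out the most extreme genes when libraries are scaled, it was -0.01 (adjusted p = 0.75).

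The exporter was low in these cells. Slc40a1 encodes ferroportin, the only known iron exporter of mammalian cells, and lies at chr1:45908068-45926523 on the minus strand. It had 72, 85 and 102 counts in control cells and 94, 84 and 85 after LPS. The groups overlapped, with means of 4.83 ± 0.64 and 5.41 ± 0.47 CPM. The log2 fold change was 0.16 (SE 0.17, 95% confidence interval -0.20 to 0.52, adjusted p = 0.51).

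Hamp encodes hepcidin, the hormone that binds ferroportin, and lies at chr7:30942368-30944032 on the minus strand. Control replicates 1, 2 and 3 gave it 0, 3 and 5 counts and each LPS library 0, too few for the test. Its mean control level, 0.146 CPM, is under what 3 counts amount to in any library, so no fold is given. In a fit without a filter on low counts, edgeR gave it an adjusted p of 0.116.

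The libraries that held Hamp also held messengers of hepatocytes, the liver cells that make hepcidin. Of 30 hepatocyte markers, 24 had more than 3 counts in control replicate 2 and 24 in control replicate 3, against 1 in control replicate 1 and 2 in each LPS library. Without Ambp, which was counted in all 6 libraries, the other 29 markers summed to 8, 415 and 614 counts in control cells and to 15, 6 and 11 after LPS. Alb, the albumin gene, had 2, 155 and 292 counts in the control libraries, 2 in LPS replicate 1 and 0 in the other LPS libraries. In bulk libraries fewer cells of a type and less RNA per cell cannot be told apart. N9 is a cell line, and neither the source of these messengers nor their part in the Hamp counts was tested.

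**Figure D2:**
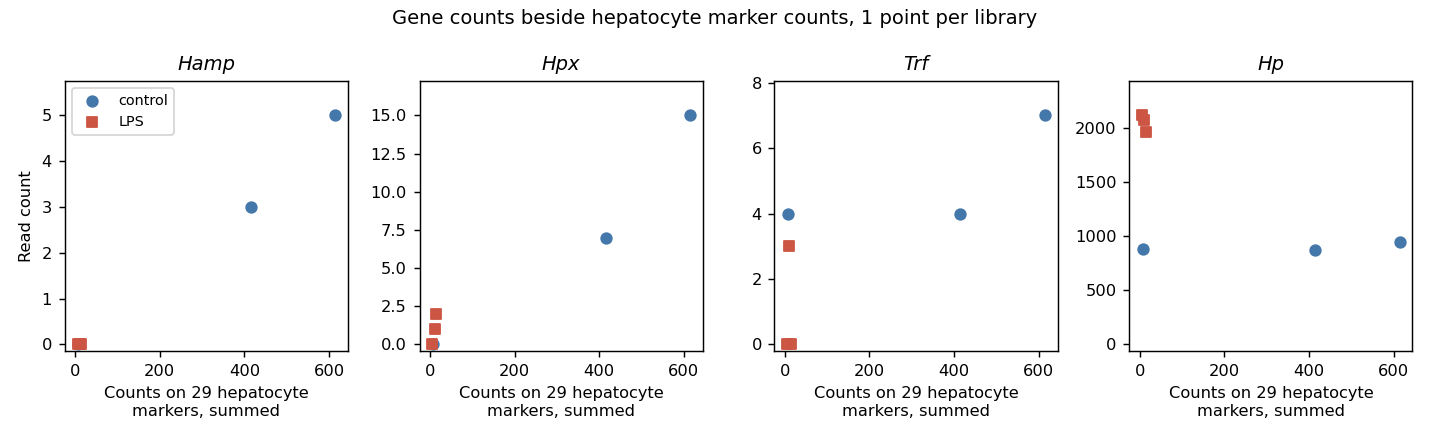
Read counts of Hamp, Hpx, Trf and Hp against the summed counts of 29 hepatocyte markers, 1 point per library on linear axes (circles, control; squares, LPS). Control replicates 2 and 3 lie to the right at 415 and 614 marker counts and hold the Hamp counts. Hp was 883 in control replicate 1, with 8 marker counts, and 876 and 949 in control replicates 2 and 3.

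The ferritin genes were the most abundant of the 10, and Fth1 rose while Ftl1 did not pass the test. Fth1 encodes the heavy chain, which oxidizes iron as it enters the shell, and Ftl1 the light chain, which helps the mineral core to form. Fth1, at chr19:9982703-9985092 on the plus strand, was at 4132, 4221 and 4230 CPM in control cells and 5934, 5620 and 5596 CPM after LPS. The groups were separate, with a 1.36-fold difference in means and a log2 fold change of 0.45 (SE 0.025, adjusted p = 2.1e-09). Ftl1, at chr7:45457944-45459884 on the minus strand, was at 3169, 2948 and 3066 CPM in control cells and 2991, 2899 and 2866 CPM after LPS. The groups overlapped, since LPS replicate 1 lay above control replicate 2. Its log2 fold change was -0.07 (SE 0.029, 95% confidence interval -0.13 to -0.0065, adjusted p = 0.0842). Leaving out control replicate 2 made it a lower call (log2 fold change -0.10, adjusted p = 0.0118), as did leaving out LPS replicate 1 (-0.09, adjusted p = 0.0351) and scaling by total counts (-0.17, adjusted p = 2.9e-04).

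A ratio of genes within a library does not depend on the scaling between libraries. Per kilobase, the level of the heavy chain was 2.02, 2.22 and 2.13 times that of the light chain in the control libraries, and 3.07, 3.00 and 3.02 times in the LPS libraries. All LPS libraries were above all control libraries, with means of 2.12 ± 0.10 and 3.03 ± 0.036 and a 1.43-fold difference. The exact permutation test gave p = 0.1, two-sided, the smallest possible here. The 2 genes together took 0.755%, 0.741% and 0.756% of all counts in control cells and 0.861%, 0.822% and 0.821% after LPS (exact permutation test, p = 0.1). The level of Tfrc per kilobase was 0.028 that of Fth1 in each control library and 0.022 in each LPS library, 0.78 of the control value (exact permutation test, p = 0.1). These are 3 ratios tested, chosen after seeing the data, with adjusted p = 0.1 for each by the same exact tests. No smaller value was possible, and the test of the summed share was not among the 3.

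**Figure D3:**
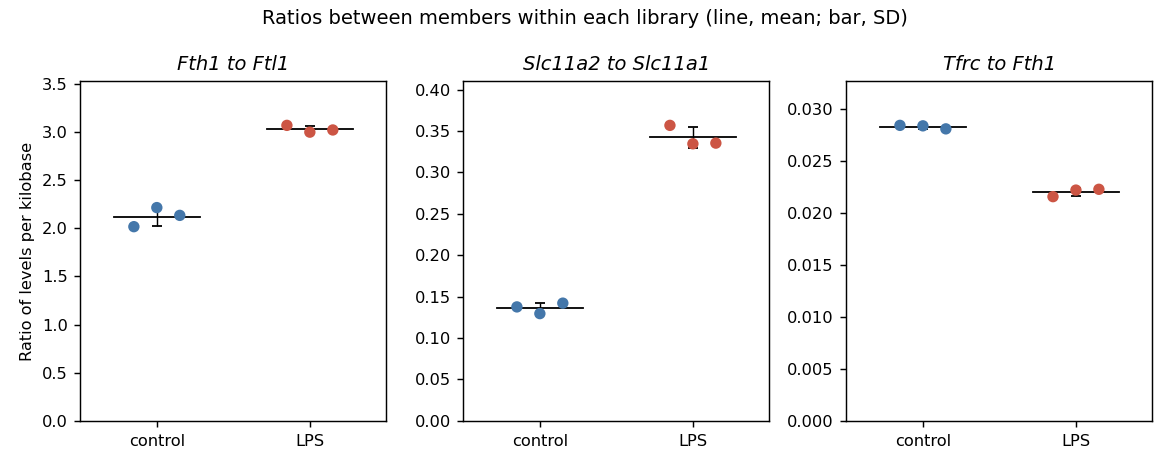
Ratios of levels per kilobase of gene length within each library, for Fth1 to Ftl1, Slc11a2 to Slc11a1 and Tfrc to Fth1, on linear axes that start at 0 (points, libraries; lines, means; bars, SD). In each panel the 3 control and the 3 LPS libraries do not overlap, with the Fth1 to Ftl1 ratio at 2.12 and 3.03.

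Ferritin has many near-identical pseudogene copies, and reads shared with them could be placed differently by another counting. Ftl1-ps1 had 1116, 903 and 965 counts in control cells and 901, 945 and 990 after LPS, and the Fth1 copies in the table were at 0. With the copies added to their parent genes, the log2 fold changes were 0.45 for Fth1 and -0.07 for Ftl1.

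Ireb2 encodes iron regulatory protein 2, which binds iron-responsive elements when iron is scarce. It lies at chr9:54863789-54912530 on the plus strand. Its level was 111, 109 and 107 CPM in control cells and 117, 108 and 115 CPM after LPS. The groups overlapped, and its log2 fold change was 0.05 (95% confidence interval -0.05 to 0.15, adjusted p = 0.45). With total counts as the scaling it was -0.05 (adjusted p = 0.46). Of the genes with an element in the 5′ UTR, Fth1 rose while Ftl1 and Slc40a1 did not pass the test. Of those with an element in the 3′ UTR, Slc11a2 rose while Tfrc did not pass.

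Hp encodes haptoglobin, the plasma protein that binds free hemoglobin, and lies at chr8:109575128-109579172 on the minus strand. It was at 51.5, 49.6 and 51.0 CPM in control cells and 124, 129 and 126 CPM after LPS. The groups were far apart relative to their spread, with means of 50.7 ± 0.98 and 126.5 ± 2.23 CPM and a 2.49-fold difference. The log2 fold change was 1.32 (SE 0.046, adjusted p = 8.7e-12). Haptoglobin is made mainly by the liver. In control replicate 1 the 29 hepatocyte markers other than Ambp summed to 8 counts, and Ambp had 86. The level of Hp was alike in that library and in control replicates 2 and 3. Without control replicates 2 and 3 the log2 fold change of Hp was 1.30. The part of liver messengers in the Hp counts was not tested.

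Lcn2 encodes lipocalin 2, which binds the siderophores that bacteria use to gather iron. It lies at chr2:32384633-32388252 on the minus strand and was barely counted in these cells. It had 1, 15 and 8 counts in control cells and 19, 37 and 12 after LPS. Control replicate 2 lay above LPS replicate 3, so the groups overlapped although the gene passed the test. The means were 0.45 ± 0.40 and 1.40 ± 0.78 CPM, with a log2 fold change of 1.62 (SE 0.58, 95% confidence interval 0.38 to 2.87, adjusted p = 0.0429). DESeq2 gave an adjusted p of 0.0673, and edgeR with total counts as the scaling 0.0515. The call was lost when control replicate 1 was left out (log2 fold change 1.11, adjusted p = 0.13). The same held for control replicate 3 (log2 fold change 1.59, adjusted p = 0.12), LPS replicate 1 (1.72, adjusted p = 0.0691) and LPS replicate 2 (1.09, adjusted p = 0.27). Without control replicate 2 the log2 fold change was 2.44 (adjusted p = 0.0155), and without control replicates 2 and 3 it was 4.41 (adjusted p = 0.0181), set by the single count of control replicate 1.

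Lipocalin 2 and haptoglobin are also stored in neutrophil granules. Of 15 neutrophil markers, 8 had at most 3 counts in every library, among them Ngp, Mpo, Ly6g and Retnlg. The whole list summed to 116 to 128 counts in control cells and 191 to 220 after LPS, of which S100a8 gave 59 to 78 and 170 to 178 (log2 fold change 1.41, SE 0.14, adjusted p = 1.9e-06). Mmp8 went the other way, with 32, 29 and 21 counts against 11, 10 and 12 (log2 fold change -1.17, SE 0.35, adjusted p = 0.0170), and so did Prtn3, with 11, 8 and 11 counts against 0, 7 and 2, which was too low to test. The erythroid list summed to 9 to 37 counts over all libraries. The 8 astrocyte markers summed to 1665 to 1835 counts in control cells and 1577 to 1681 after LPS, nearly all from Gja1 (1151 to 1279 counts over all libraries) and Aldh1l1 (350 to 534). Gja1 rose (log2 fold change 0.18, SE 0.049, adjusted p = 0.0099) and Aldh1l1 fell by 0.29 (SE 0.082, adjusted p = 0.0129). Gfap had 1, 2 and 3 counts in control cells and 10, 6 and 0 after LPS, and 4 of the 8 had at most 3 counts in every library. The part of these markers in the Lcn2 and Hp values was not tested.

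**Figure D4:**
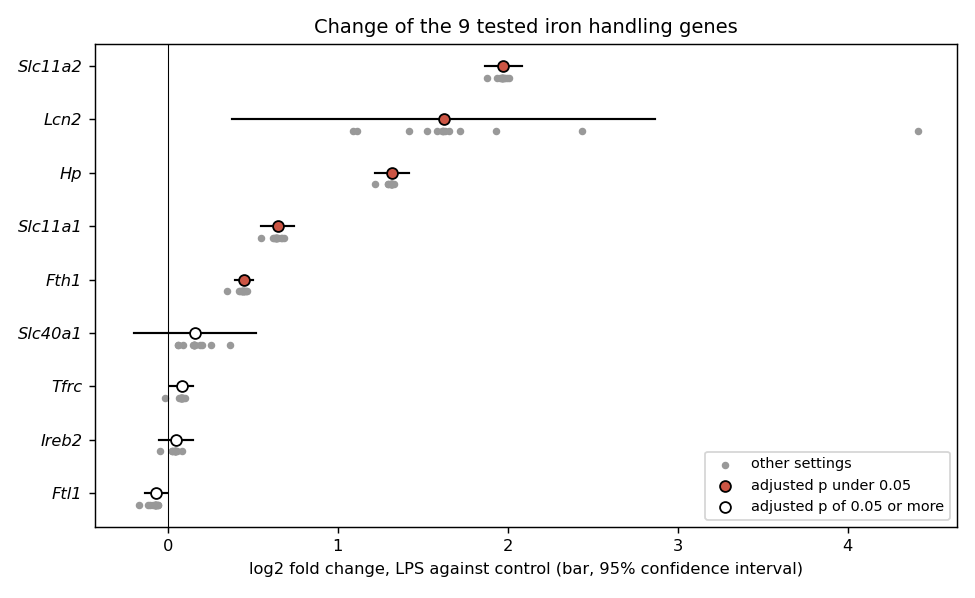
Log2 fold change of LPS against control for the 9 tested genes, with 95% confidence intervals as bars. Red points passed the adjusted p of 0.05, white points did not, and grey points below each are the values under the other processing settings. Slc11a2, Hp, Slc11a1 and Fth1 have intervals far from 0, the interval of Lcn2 runs from 0.38 to 2.87, and its grey points spread most.

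The order of the levels per kilobase is a description, since gene length is the deposited one. In control cells Fth1 came first at 4843 ± 62.3 and Ftl1 next at 2284 ± 82.7 CPM per kilobase, the 3rd and 5th highest of all genes in the table. Tfrc followed at 137 ± 1.35, Slc11a1 at 59.7 ± 2.31, Hp at 31.6 ± 0.61, Ireb2 at 11.5 ± 0.22 and Slc11a2 at 8.14 ± 0.16 CPM per kilobase. Slc40a1, Hamp and Lcn2 came last at 0.54 ± 0.071, 0.36 ± 0.33 and 0.17 ± 0.15, where the spreads of neighbours in the order overlap for Slc40a1 with Hamp and for Hamp with Lcn2. With LPS, Slc11a2 stood at 32.0 ± 1.61 CPM per kilobase and passed Ireb2 at 11.9 ± 0.51, while Slc11a1 at 93.5 ± 2.49 and Hp at 78.8 ± 1.39 stayed below Tfrc at 145 ± 2.19.

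The other genes of iron and heme metabolism were described from 10 lists with 76 symbols, of which 73 were in the table and 52 could be tested. By edgeR, 11 of the 52 rose and 13 fell, beside 18.7% and 15.7% of all genes, and the median log2 fold change of the 52 was 0.0010. The same shares of all genes stand beside the counts given below for each list, and the lists are small. Scaling by total counts moved the median of all genes from 0.0036 to -0.09. In that fit 10 of the 52 rose and 20 fell, beside 12.4% and 27.2% of all genes. Without control replicates 2 and 3, which held the hepatocyte messengers, 10 rose and 6 fell, beside 13.0% and 8.89% of all genes in that fit.

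Heme breakdown releases iron from heme. Hmox1, the inducible heme oxygenase, was at 376 ± 1.24 CPM in control and 923 ± 9.40 CPM in LPS libraries (n = 3 each), with 6473, 6625 and 6991 counts against 14687, 14973 and 15230. Its log2 fold change was 1.29 (SE 0.033, adjusted p = 3.1e-13). Of the 7 tested genes of heme breakdown and transport 3 rose and 2 fell. The heme exporter Flvcr1 rose (0.28, adjusted p = 0.0040), and biliverdin reductase Blvra fell by 0.30 on the log2 scale (adjusted p = 1.1e-04).

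Of 8 tested genes of heme synthesis, 1 rose and 4 fell, each by little. Alas1, whose enzyme makes the first committed step, rose (log2 fold change 0.31, SE 0.054, adjusted p = 3.7e-04). Cpox, whose enzyme acts later in the pathway, fell by 0.29 (SE 0.075, adjusted p = 0.0073). Alas2, the form of red blood cell precursors, had 0 to 9 counts.

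Mitochondria use iron for heme and iron-sulfur clusters, and 2 of 17 tested genes in that list rose while 4 fell. The 2 that rose are the mitochondrial iron importers. Slc25a37 (mitoferrin 1) went from 446, 525 and 487 counts to 814, 1042 and 1188, with a log2 fold change of 1.19 (SE 0.10, adjusted p = 3.4e-07). Slc25a28 (mitoferrin 2) had a log2 fold change of 0.50 (SE 0.091, adjusted p = 5.9e-04). Abcb10, an inner membrane transporter that stabilizes mitoferrin 1, fell by 0.44 (SE 0.067, adjusted p = 1.3e-04).

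Among 5 tested genes of uptake and iron reduction, 2 rose and 1 fell. The metal importers Slc39a8 (ZIP8) and Slc39a14 (ZIP14) rose, with log2 fold changes of 0.79 (SE 0.062, adjusted p = 1.0e-07) and 0.39 (SE 0.051, adjusted p = 2.8e-05). Steap3, which reduces iron in the endosome before DMT1 carries it, fell by 0.38 (SE 0.058, adjusted p = 1.4e-04), from 169 ± 3.83 to 130.6 ± 12.01 CPM. Trf, the transferrin gene, had 4, 4 and 7 counts in control cells and 0, 0 and 3 after LPS, and Steap4 had at most 1 count.

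Of the export list, both tested oxidases rose, at low levels. Cp (ceruloplasmin) had 60, 83 and 58 counts in control cells and 104, 95 and 84 after LPS, with a log2 fold change of 0.63 (SE 0.19, adjusted p = 0.0199). That call was lost by DESeq2 (adjusted p = 0.0573) and without control replicate 1 (0.0591), control replicate 3 (0.0996), LPS replicate 1 (0.0829), LPS replicate 2 (0.0534) or control replicates 2 and 3 together (0.0621), with log2 fold changes of 0.50 to 0.73 in these fits. Hephl1 had 2, 6 and 12 counts in control cells and 21, 27 and 22 after LPS (log2 fold change 1.93, SE 0.45, adjusted p = 0.0040). Its log2 fold change was 1.51 without control replicate 1, 2.60 without control replicate 3 and 3.54 without control replicates 2 and 3. That last value was set by the 2 counts of control replicate 1. Heph, the membrane form of the intestine, was at 0 in every library, and 0 counts allow up to 3.

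Of the list of hepcidin and its upstream genes, 2 of 9 in the table were tested and 1 fell. Hfe, a partner of the transferrin receptors, fell by 0.31 (SE 0.10, adjusted p = 0.0271). The call was lost by DESeq2 (adjusted p = 0.0821) and without control replicate 2 (0.0874), LPS replicate 2 (0.0827), LPS replicate 3 (0.0921) or control replicates 2 and 3 together (0.22), with log2 fold changes of -0.32 to -0.27 in these fits. In the storage list 1 of 4 tested genes rose, Pcbp1, an iron chaperone that loads ferritin (0.12, SE 0.039, adjusted p = 0.0245). Its call was lost without control replicate 2, control replicate 3, LPS replicate 1 or LPS replicate 2, with adjusted p between 0.0502 and 0.11, without control replicates 2 and 3 together (log2 fold change 0.08, adjusted p = 0.37), and with total counts as the scaling (0.66). Ncoa4, the receptor that delivers ferritin to lysosomes, had 0.11 (adjusted p = 0.14). It was called higher without LPS replicate 3 (0.17, adjusted p = 0.0368) and had 0.015 with total counts as the scaling.

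None of the 4 tested genes of iron-responsive RNA regulation was called by edgeR, 0 had an unadjusted p under 0.05, and DESeq2 gave adjusted p from 0.41 to 0.75. Aco1, which encodes iron regulatory protein 1, had a log2 fold change of 0.07 (adjusted p = 0.30), and Fbxl5, the iron-sensing ligase subunit that removes iron regulatory protein 2, had 0.12 (adjusted p = 0.19). Of the lipocalin 2 partners, Lrp2 (megalin) fell by 1.52 (SE 0.40, adjusted p = 0.0082) at 18, 29 and 36 counts against 5, 9 and 12. Without control replicate 3 its adjusted p was 0.0521, and without control replicates 2 and 3 its log2 fold change was -0.97 (adjusted p = 0.37). Slc22a17, the other receptor, had at most 3 counts in each library.

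Of the scavenging list, Cd163, the haptoglobin-hemoglobin receptor, had at most 2 counts in each library. Hpx, which encodes the heme carrier hemopexin, had 0, 7 and 15 counts in control cells and 2, 0 and 1 after LPS, highest in the libraries with hepatocyte markers. The only tested gene, Lrp1, the hemopexin receptor, had a log2 fold change of 0.22 (SE 0.12, adjusted p = 0.18), with 0 genes of the list at an unadjusted p under 0.05 and a DESeq2 adjusted p of 0.56. Lrp1 was called higher without control replicate 2 (0.36, adjusted p = 0.0253), without LPS replicate 1 (0.36, adjusted p = 0.0196), without control replicates 2 and 3 (0.54, adjusted p = 0.0103) and with no filter on low counts (0.22, adjusted p = 4.0e-08), but not with no filter and robust dispersion (0.22, adjusted p = 0.59).

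**Figure D5:**
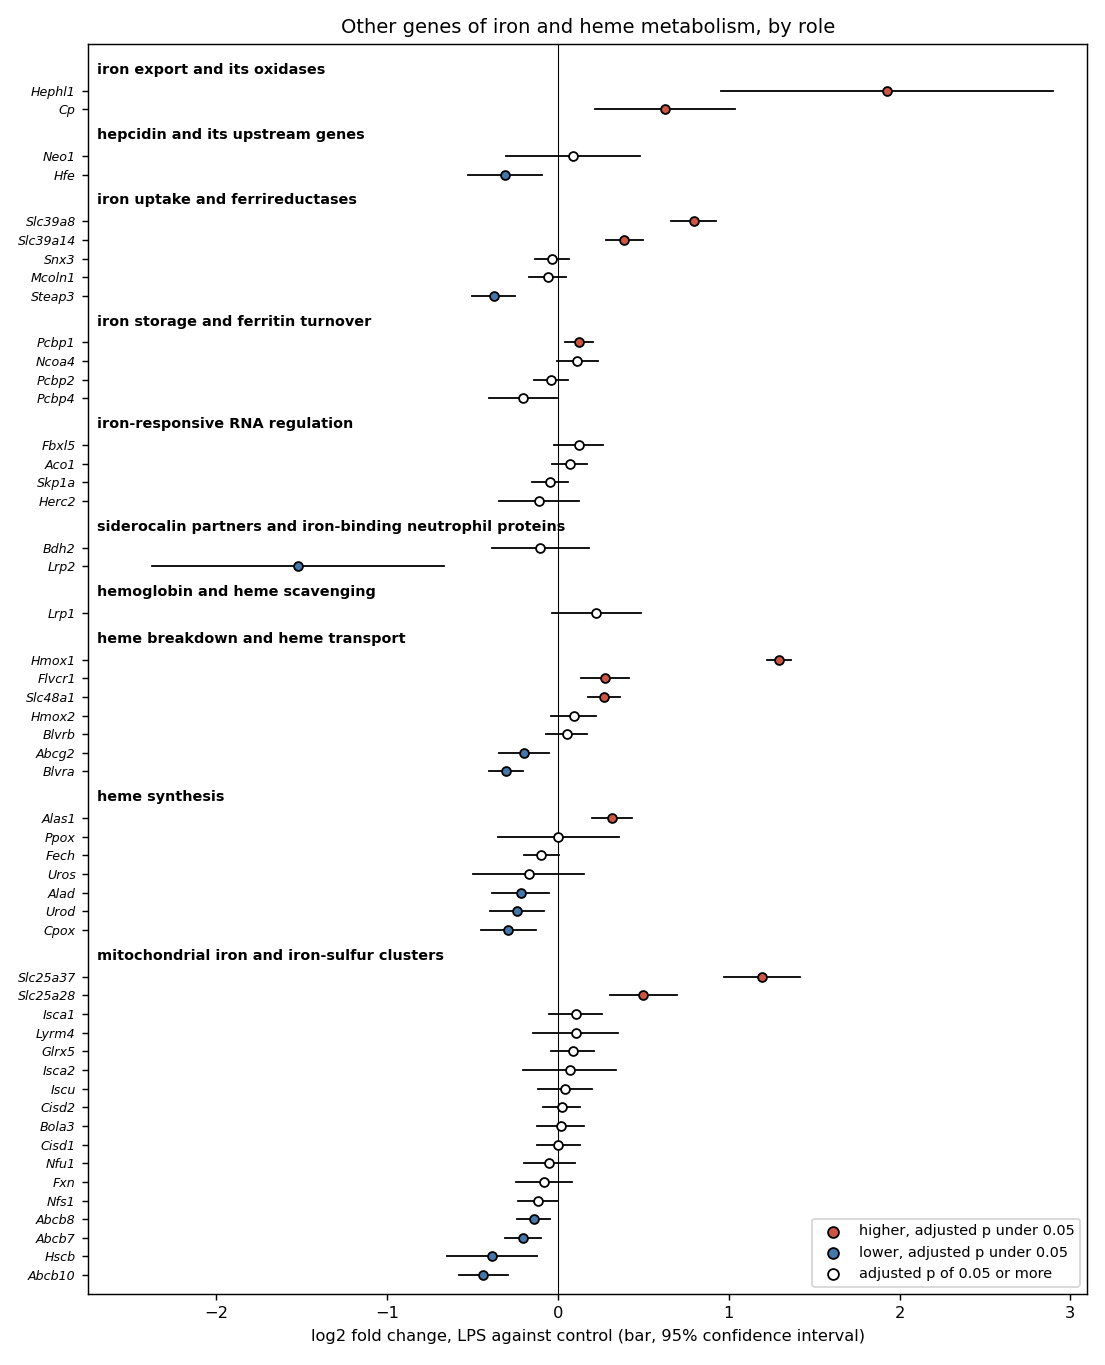
Log2 fold change of LPS against control for 51 of the 52 tested genes of the 10 lists, grouped by role, with 95% confidence intervals as bars. Red points rose and blue points fell at an adjusted p under 0.05, and white points did not pass. Hmox1, Slc25a37 and Slc39a8 lie to the right with narrow intervals, while Hephl1 and Lrp2 have wide ones.

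Each library held 16363767 to 17956772 counts, so that 3 counts amount to 0.161 to 0.190 CPM. Pairs of libraries within a group differed by more than sampling noise. Of 15 microglia and macrophage markers, 13 or 14 had more than 3 counts in each library, with Csf1r, Cd68, Tyrobp and Trem2 at 1481 counts or more, while P2ry12 had 3 to 6 counts and Sall1 at most 1. These last are markers of microglia in the brain.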

How the data were processed

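RNA-seq was done on N9 microglia in 6 libraries, 3 control and 3 with LPS, grouped by their labels. The authors deposited raw read counts per gene, as whole numbers with no normalization. The submitters' processing notes name featureCounts 1.5.0-p3 and the build mm10, which is GRCm38. The aligner, the annotation and the use of strand are not given in the sources used here, so overlapping genes may share reads. The deposited gene length was used for levels per kilobase. A deposited table of the authors' own comparison (fold changes, p-values) was not used, nor were its 18 further columns of values per sample.

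Here, LPS was compared with control by edgeR 4.0.16 (R 4.3.3), with TMM factors, filterByExpr, the quasi-likelihood test, a prior count of 0.125 and Benjamini-Hochberg adjustment over the 12296 genes tested. CPM use the TMM-scaled totals. The fits were tested on simulated data. Alternatives were DESeq2 1.42.0, RLE factors, no filter, no filter with robust dispersion, a prior count of 2, ferritin copies added, a replicate block and each library left out. Total-count scaling, the fit without control replicates 2 and 3, and the ratios were chosen after seeing the data. The letters and pairing of the iron-responsive element were searched for in GENCODE M21 UTRs. The deposited positions equal that annotation for 9 of 10 genes, all but Fth1. Figures used matplotlib 3.10.9 (Python 3.11.15).

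The 10 genes and the lists were chosen with earlier results of these data known. All 10 are given, with 14 partners whatever their values and up to 3 called genes of each list with the largest changes, except 1 that is not reported here. Reads carry no molecular identifiers, so limits from counts cover counting error only.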

Additional observations from a re-analysis of the deposited data

How the results depend on the processing

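Of 401 values of 30 genes under an alternative, 361 kept their direction and side of the threshold. Slc11a2, Hp, Slc11a1, Fth1 and Hmox1 were called in every alternative run. With total-count scaling, Tfrc turned to -0.0143, Ireb2 to -0.0475 and Aco1 to -0.0304 on the log2 scale, since the TMM factors of the groups differ, and the cause of that difference was not tested. The number of the 10 genes called lower, 0, was 1 (Ftl1) with no filter, with no filter and robust dispersion, with total-count scaling and without control replicates 2 and 3, where the remaining control library was taken to vary like the LPS libraries. It ranged from 0 to 1 with each library left out. The number of companion genes called lower, 13, was 20 with total-count scaling and 6 without control replicates 2 and 3, and ranged from 8 to 13 with each library left out, lowest without control replicate 3 and without LPS replicate 2. The cause of these was not tested. The fold of the Fth1 to Ftl1 ratio was 1.39 to 1.46 when single libraries were left out. Total-count scaling called 1520 genes higher and 3342 lower, against 2294 and 1927. Lcn2, Slc40a1 and Hamp had at most 37, 102 and 5 counts in a library, and no fit varied the depth.

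With the replicate number as a block, 5 of the 10 genes were called higher and 0 lower, and 4474 genes in all against 4221 without the replicate block. Of 61 genes of the report, 1 call differed, Lrp1, which the block called higher (log2 fold change 0.23, adjusted p = 0.0019, against an adjusted p of 0.18 without it). The deviations of libraries with the same number correlated with r = 0.13, 0.048 and 0.0049, and those of libraries with different numbers with -0.12 to 0.077. The highest of all was between the libraries with number 1. Control replicate 2 correlated more with LPS replicate 3 (0.077) than with its own number, and the numbers were not taken as pairs.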

Other observations

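The letters and pairing of the iron-responsive element were also found in a UTR of 433 other protein-coding genes, of which 294 were tested. Of these 56 (19.0%) were called higher and 57 (19.4%) lower by edgeR, beside 18.7% and 15.7% of all genes tested, and their median log2 fold change was -0.0066. These are matches of sequence, not measured sites. The genes named next were picked from knowledge of this element, outside the rule for named genes. Epas1, which encodes the hypoxia factor HIF-2 alpha and carries an element in its 5′ UTR, had 663, 796 and 904 counts in control cells and 332, 334 and 343 after LPS. It fell by 1.09 on the log2 scale (SE 0.087, adjusted p = 1.4e-07), and its groups did not overlap. Of the others given here, those tested did not pass: the adjusted p was 0.79 for Cisd2 (log2 fold change 0.02), 0.88 for Bola3 (0.01) and 0.63 for Ftl1-ps1 (0.06). Alas2 had 6, 5 and 0 counts in control cells and 3, 3 and 9 after LPS, too few to test.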
